A study of Mus musculus with 4 samples.

Results

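Neuroblasts and dividing progenitors were searched for among single nuclei of the 5XFAD mouse brain by the genes that mark them. A barcode entered the set when it held at least 500 UMIs (unique molecular identifiers, each standing for 1 captured RNA molecule), 200 to 2500 genes and at most 10% mitochondrial UMIs, and met at least 1 of 2 conditions. The first, called here the neuroblast arm, asked for UMIs of at least 3 of the 7 genes Igfbpl1, Sox11, Dcx, Ccnd2, Dlx1, Dlx2 and Cd24a. The second, the cycling arm, asked for at least 2 of the 6 genes Top2a, Mki67, Cenpf, Cdca8, Hmgb2 and Lockd. Barcodes with more than 1 UMI of the striatal neuron genes Rarb and Rgs9 together were left out of both. Of 32806 barcodes within the limits, 146 entered (0.445%), of which 87 met only the neuroblast condition, 50 only the cycling condition and 9 both. The members were chosen by their UMIs of the 15 genes of the rule in these same barcodes, so the levels of these genes are given as a description. They were left out of the comparisons of classes. In the comparison of treatments and in the interaction they stayed among the genes tested, and none passed.

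All mice were female 5XFAD animals of 7 to 10 weeks. This amyloid model carries mutant human transgenes, APP among them, under the neuronal Thy1 promoter, and PE-low-EV and PE-high-EV mice carried them alike. They received 100 µL with 6550000000 engineered extracellular vesicles intravenously. The vesicles were rebuilt from the lipids of chow-fed adipocyte vesicles and carried transferrin, and PE-high-EVs were enriched in phosphatidylethanolamine (PE) relative to PE-low-EVs. Each group had 2 libraries, each pooled from 2 mice, and single mice cannot be told apart within a library. The 4 matrices held 41470611, 43272337, 32515094 and 29472021 UMIs. Libraries are named in this order throughout, first both of PE-low-EV mice (replicate 1, then 2) and then both of PE-high-EV mice. The members numbered 44, 54, 26 and 22, and their UMIs summed to 86346, 140848, 29757 and 27569. No barcode sequence of a member occurred among the members of another library, and pairs of libraries shared 15 to 27 of all kept barcodes.

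In the adult mouse forebrain, stem cells of the subventricular zone give rise to transit amplifying progenitors that divide, and these to neuroblasts that migrate in chains to the olfactory bulb and become inhibitory interneurons. A further niche in the dentate gyrus makes excitatory granule neurons. Neuroblasts hold doublecortin (Dcx) and SoxC factors such as Sox11 and Sox4, those of the subventricular lineage Dlx factors as well, and dividing cells hold the genes of DNA replication and mitosis.

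Of the neuroblast genes, Dcx, which encodes a microtubule-binding protein of migrating neurons, lay at 341 CPM (UMIs of the gene scaled to a common total of the UMIs summed over a class) in the members and at 78.1 CPM in all other barcodes. It had 24, 46, 13 and 14 UMIs in the members of the 4 libraries. Sox11, a transcription factor of immature neurons, lay at 306 against 33.2 CPM, and Igfbpl1, a secreted protein of newborn neurons, at 155 against 5.21 CPM. Dlx1, a homeobox factor of the inhibitory lineage, lay at 193 against 5.63 CPM with 15, 25, 7 and 8 UMIs. Dlx2 and Cd24a had only 16 and 11 UMIs in the members. Ccnd2, cyclin D2, lay at 460 CPM in the members and at 606 CPM in barcodes of the cycling arm only, so that it was high in both arms. The commonest combination was Sox11 with Dcx and Ccnd2 in 22 barcodes, followed by Dcx with Ccnd2 and Dlx1 in 13 and Igfbpl1 with Dcx and Ccnd2 in 11.

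The cycling genes separated more sharply. Top2a, the topoisomerase that untangles chromosomes before mitosis, lay at 1397 CPM in barcodes of the cycling arm only, at 9.51 CPM in those of the neuroblast arm only and at 1.10 CPM in all other barcodes. It had 33, 29, 20 and 15 UMIs in the members of the 4 libraries. Mki67, which coats mitotic chromosomes, lay at 522 CPM in the cycling arm, Cenpf, a kinetochore protein, at 404 CPM, and the long noncoding RNA Lockd at 572 CPM. Near-empty barcodes of 100 to 400 UMIs, which hold free RNA and debris, had 1.59 CPM of Top2a and 1.99 CPM of Mki67. For Ccnd2 and Sox11 the near-empty level was 60.0 and 45.6 CPM, above that of all other barcodes.

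The rule sits on a slope for neuroblast genes and on a step for cycling genes. Among barcodes with few striatal UMIs, 5440 held 1 of the 7 neuroblast genes, 775 held 2, 83 held 3 and 11 held 4. For the cycling genes, 502 barcodes held 1 of 6, 30 held 2 and 21 held 3. Just inside the limits, 88.5% of the 26 barcodes of the cycling arm only with 2 genes also had UMIs of at least 2 other genes of the G2 and M phases, against 12.6% of the 494 barcodes just outside with 1 gene. Just inside the neuroblast limit, 20 neuroblast genes outside the rule summed to 11490 CPM, against 9198 CPM just outside, most of it from Nrxn3 on both sides.

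The promoters of the cycling genes were read for a pair of short motifs known from cell cycle genes, the letters TTTGAA, called the cell cycle genes homology region (CHR), and CCAAT, the box bound by NF-Y. Both strands of the stretch from 250 bases before to 50 after each start were searched in RefSeq promoters of GRCm38.p6, the build of the files, and a base in both motifs was counted for each. Among 32851 promoters, 17.9% held TTTGAA, 37.4% held CCAAT and 6.95% held both. The promoters of all 6 cycling genes of the rule held both. Of 27 promoters of listed G2 and M phase genes outside the rule, 66.7% held TTTGAA and 51.9% both, whereas of 23 promoters of listed S phase genes 4.35% held TTTGAA and 73.9% CCAAT. Of 5 promoters found for 4 of the 7 neuroblast genes, 1 held TTTGAA and 4 held CCAAT. A match is a run of letters and not a measured site. Below are 4 of the cycling promoters, shown because these genes define the dividing members, 5′ to 3′ on the strand of the gene, with matches of either motif on either strand in capitals. They are Top2a at chr11:99024140-99024439 (minus strand), Mki67 at chr7:135716330-135716629 (minus), Cenpf at chr1:189688037-189688336 (minus) and Hmgb2 at chr8:57511593-57511892 (plus).
Top2a: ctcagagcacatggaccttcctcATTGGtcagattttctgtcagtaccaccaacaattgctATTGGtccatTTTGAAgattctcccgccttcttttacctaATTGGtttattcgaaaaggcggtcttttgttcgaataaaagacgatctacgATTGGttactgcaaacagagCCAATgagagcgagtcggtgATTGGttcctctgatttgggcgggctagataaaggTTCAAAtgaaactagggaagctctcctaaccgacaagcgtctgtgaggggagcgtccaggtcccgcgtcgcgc
Mki67: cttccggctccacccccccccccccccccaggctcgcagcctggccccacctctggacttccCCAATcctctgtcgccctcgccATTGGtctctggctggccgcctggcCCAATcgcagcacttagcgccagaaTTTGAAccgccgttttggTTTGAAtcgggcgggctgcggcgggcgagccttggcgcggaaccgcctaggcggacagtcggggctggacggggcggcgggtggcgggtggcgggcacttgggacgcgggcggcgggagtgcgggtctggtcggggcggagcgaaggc
Cenpf: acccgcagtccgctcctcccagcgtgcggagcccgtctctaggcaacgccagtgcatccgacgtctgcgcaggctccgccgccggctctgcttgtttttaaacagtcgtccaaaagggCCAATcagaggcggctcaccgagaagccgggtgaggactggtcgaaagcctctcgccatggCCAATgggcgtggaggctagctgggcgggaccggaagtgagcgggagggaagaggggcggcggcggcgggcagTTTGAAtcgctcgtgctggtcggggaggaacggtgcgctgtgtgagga
Hmgb2: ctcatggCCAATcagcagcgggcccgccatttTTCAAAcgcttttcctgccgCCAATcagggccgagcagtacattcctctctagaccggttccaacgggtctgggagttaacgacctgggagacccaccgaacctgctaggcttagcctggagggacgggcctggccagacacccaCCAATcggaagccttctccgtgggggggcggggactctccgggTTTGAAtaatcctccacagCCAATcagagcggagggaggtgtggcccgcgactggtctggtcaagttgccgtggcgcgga
Top2a held 6 CCAAT boxes and 2 TTTGAA matches in this window, Mki67 3 and 2, Cenpf 2 and 1, and Hmgb2 4 and 2.

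To describe what the members carried beyond the rule, UMIs were summed per library and class and the members were compared with all 32660 other barcodes by edgeR's quasi-likelihood test, with the library as a block, the genes of the rule left out and Benjamini-Hochberg adjustment. The same barcodes gave both the rule and the other genes, so these counts describe the set and are not independent evidence for it. Of 14694 genes tested, 247 (1.68%) were higher in the members and 414 (2.82%) lower at an adjusted p of 0.1. The filter on low counts keeps a gene that is high enough in either class, and one kept by way of a single class tends to come out higher there, so its call is no support. The limit was 1.61 CPM in all 4 libraries of a class. Of the 14694 genes, 4778 passed in each class alone, and of these 138 were higher and 264 lower. The split depended on scaling. RLE factors gave 318 higher and 229 lower, and DESeq2 215 higher and 77 lower. The median log2 difference over all genes was -0.31, and -0.11 with RLE factors, and the log2 differences below stand beside this shift. At the mitochondrial limit of 3%, 38 members remained and 12 genes passed, and without PE-low-EV replicate 1, PE-high-EV replicate 1 or PE-high-EV replicate 2 the calls numbered 272, 364 and 418.

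Genes of the G2 and M phases act when cells condense and separate their chromosomes. Of 30 listed outside the rule, 22 were tested. Of these, 9 lay too low in all other barcodes to pass the filter there, and all 9 came out higher. Of the 9 that passed in each class 7 were higher and none lower. Knl1, a kinetochore scaffold (ENSMUSG00000027326, chromosome 2 from 119047119 to 119105501), had 15, 6, 8 and 5 UMIs in the 146 members and lay at 120 CPM against 0.916 CPM in all other barcodes. Every library held it in its members. The fitted log2 difference was 6.85 ± 0.48 (SE) for Knl1 and 5.57 ± 0.49 for Cenpe, the kinesin motor of the kinetochore, and both were kept by way of the members. The 12 genes with the largest rise were Cdc25c, Neil3, Cdca2, Knl1, Sgo1, Ckap2l, Hmmr, Esco2, Depdc1a, Aspm, Ckap2 and Kntc1, at log2 differences of 5.76 to 8.15. All 12 lay at 0.0999 to 0.916 CPM in all other barcodes and passed the filter through the members, so their rise describes the members and is no support. They include the phosphatase that starts mitosis (Cdc25c), the protector of sister chromatids (Sgo1), the enzyme that sets cohesion (Esco2) and a protein of the spindle poles (Aspm). Each rested on few molecules, such as 5, 3, 2 and 1 UMIs of Cdc25c.

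Genes of DNA replication followed. Of 24 listed S phase genes, 17 were tested and 7 were higher, none lower. Of the 4 that passed the filter in each class 3 were higher. The 7 were Clspn, Pola1, Ezh2, Dtl, Pole, Atad2 and Tyms. Pola1, the catalytic subunit of the polymerase that primes replication, had 24, 20, 6 and 6 UMIs in the members and rose by 1.71 ± 0.29 on the log2 scale (adjusted p = 9.37e-07, edgeR). Clspn, a checkpoint adaptor of the replication fork, had 14 UMIs in the members, none of them in the neuroblast arm only.

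Few genes of stem cells and transit amplifying progenitors passed. Of 14 listed genes 12 were tested and 2 were higher, Egfr and Pax6. Egfr, the epidermal growth factor receptor of transit amplifying cells (ENSMUSG00000020122, chromosome 11 from 16752203 to 16918158), had 24, 19, 6 and 9 UMIs in the members and lay at 204 against 25.4 CPM in all other barcodes. Of these 58 UMIs, 51 were in barcodes of the cycling arm only, where 19 of 50 barcodes held it and the level was 858 CPM, against 9.51 CPM in the neuroblast arm only. Near-empty barcodes had 8.89 CPM, and barcodes with inhibitory neuron genes 86.2 CPM. Nes and Sox2, further progenitor genes, had 1 and 9 UMIs in the members, too few for a statement. Gfap, a marker of astrocytes and stem cells, had 6.

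Of 20 listed neuroblast genes outside the rule, 18 were tested and 4 were higher, Dlx6os1, Sox4, Sp8 and Dpysl3, none lower. Sp8 was kept by way of the members, and of the 13 that passed in each class 3 were higher. Dlx6os1 (ENSMUSG00000090063), a long noncoding RNA of the Dlx5 and Dlx6 locus on chromosome 6 from 6820189 to 6871592, overlaps Dlx6. It had 40, 46, 24 and 16 UMIs in the members and lay at 443 CPM against 52.4 CPM in all other barcodes and 19.9 CPM in near-empty ones. Its log2 difference was 2.85 ± 0.25 (adjusted p = 2.48e-27, edgeR). Sox4, the partner of Sox11, had 13, 9, 2 and 4 UMIs and a log2 difference of 2.46 ± 0.41 (adjusted p = 4.08e-07, edgeR). Sp8, a zinc finger factor of olfactory interneurons, had 8 UMIs. The general markers of young neurons Tubb3 and Stmn2 did not pass, at log2 differences of -0.41 and -0.13 (adjusted p of 0.639 and 0.909, edgeR), and both were highest in near-empty barcodes, at 293 and 491 CPM. Of 30 fate factors 28 were tested and 8 were higher, among them Nfib, Sox4, Nfia, Sp8, Pax6, Pbx3 and Prox1. Of the 17 that passed the filter in each class 6 were higher. Foxp1, a factor of striatal and cortical neurons, was the only lower one, at -1.39 ± 0.28 on the log2 scale. Barcodes with more than 1 UMI of Rarb and Rgs9 together were left out of the members but stayed among all other barcodes. The rule thus acts on striatal genes, so this fall is no support. Prox1, which marks dentate granule cells and some interneurons, was the only tested gene of 7 of the dentate list that was higher. The dentate and cortical factors Neurod1 and Eomes had 0 UMIs in the members, which allows up to 10.5 CPM. Emx1, a homeobox factor of the cortical lineage, had 1 UMI, or 3.51 CPM against 5.13 CPM in all other barcodes.

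Receptors and guidance genes moved both ways. Of 26 tested genes of chain migration, adhesion and guidance, Lrp8, a reelin receptor, and Slit1, a repellent of migrating neurons, were higher, and Nrg1, Dab1 and Robo1 were lower. The receptor Prokr2, which guides neuroblasts to the olfactory bulb, had 0 UMIs. Of 23 cytoskeletal genes of immature neurons, Dpysl3 and Dclk2 were higher. Of 20 genes of GABA signalling and synapse maturation none was higher and 6 were lower. Of the 17 that passed the filter in each class 5 were lower, and Slc12a5, the chloride exporter of mature neurons, was kept by way of all other barcodes alone. Of 18 tested genes of PE synthesis and breakdown none passed, and of 16 of ER stress only Atf6 did, lower in the members. The 12 genes with the largest fitted fall all had 0 UMIs in the members. All 12 were kept by way of all other barcodes alone, where they are higher, so their fall is no support either. They included the interferon-response gene Ifit1 and the endothelial genes Ly6a, Ly6c1, Tek and Slco1a4, and Ifit1 was at least 2.52-fold lower, with the floor set at 3 counts over all members.

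**Figure D1:**
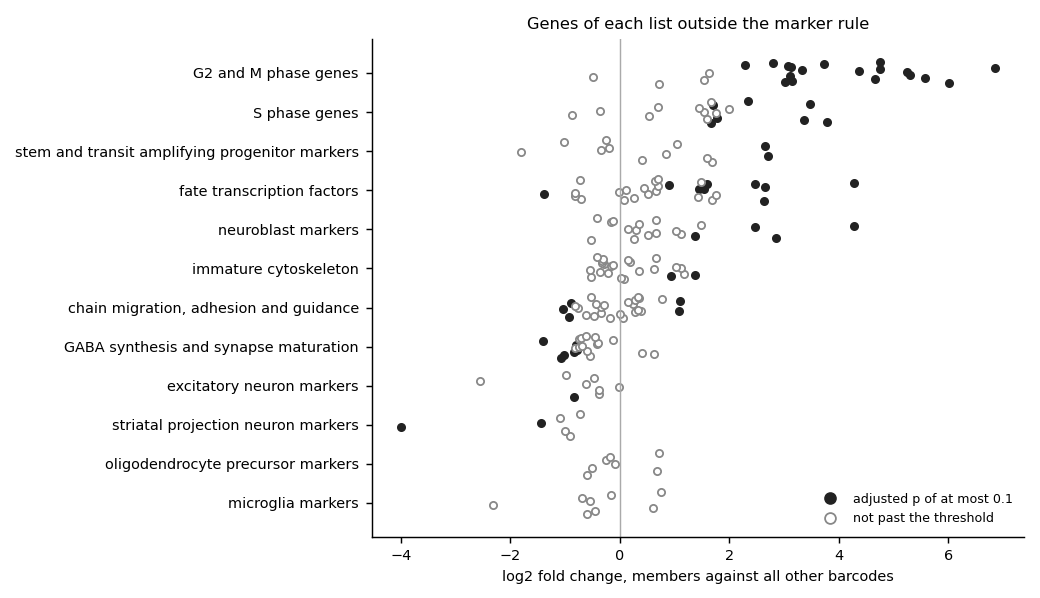
Log2 difference between members and all other barcodes for each tested gene of the lists, with genes past an adjusted p of 0.1 marked as in the legend. Knl1, at 6.85, lies among the G2 and M phase genes, of which 9 of 22 lay too low in all other barcodes to pass the filter there. The genes of synapse maturation lie around or below 0.

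Each arm was also set against the same other barcodes. The 59 barcodes of the cycling arm (the 9 of both arms included) had 238 genes higher (1.64% of 14548) and 1401 lower (9.63%), with a median log2 difference over all genes of -1.12. The 96 barcodes of the neuroblast arm had 66 higher (0.452% of 14594) and 110 lower (0.754%), with a median of -0.39. Of 2076 genes that passed the filter in each class, the cycling arm had 118 higher and 446 lower, and of 3450 the neuroblast arm had 27 higher and 56 lower. Counts of lower genes in the cycling arm stand beside that shift. In the cycling arm 20 of 22 tested G2 and M phase genes and 6 of 16 S phase genes were higher. Of those 20, 9 lay too low in all other barcodes to pass the filter there. In the same arm 15 of 20 genes of GABA signalling and synapse maturation were lower. Of the 13 of these that passed in each class 10 were lower, among them Gria1 and Syt1. Egfr rose there by 3.85 ± 0.33 on the log2 scale (adjusted p = 3.57e-28, edgeR). Of 18 tested genes of PE synthesis and breakdown 1 passed in each class, and it was not called. Etnk1, Pcyt2 and Chka, called lower, were kept by way of all other barcodes alone. In the neuroblast arm Dlx6os1, Sox4 and Sp8 of 18 tested neuroblast genes were higher, Sp8 again kept by way of the members, and of the 11 that passed in each class 2 were higher. There 6 of 17 G2 and M phase genes were higher (3 of them too low in all other barcodes to pass the filter there) and none of 16 S phase genes. No gene of synapse maturation passed in either direction. The 9 barcodes that met both conditions held part of these mitotic transcripts, such as 7 UMIs of Cenpe against 3 in the other 87.

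**Figure D2:**
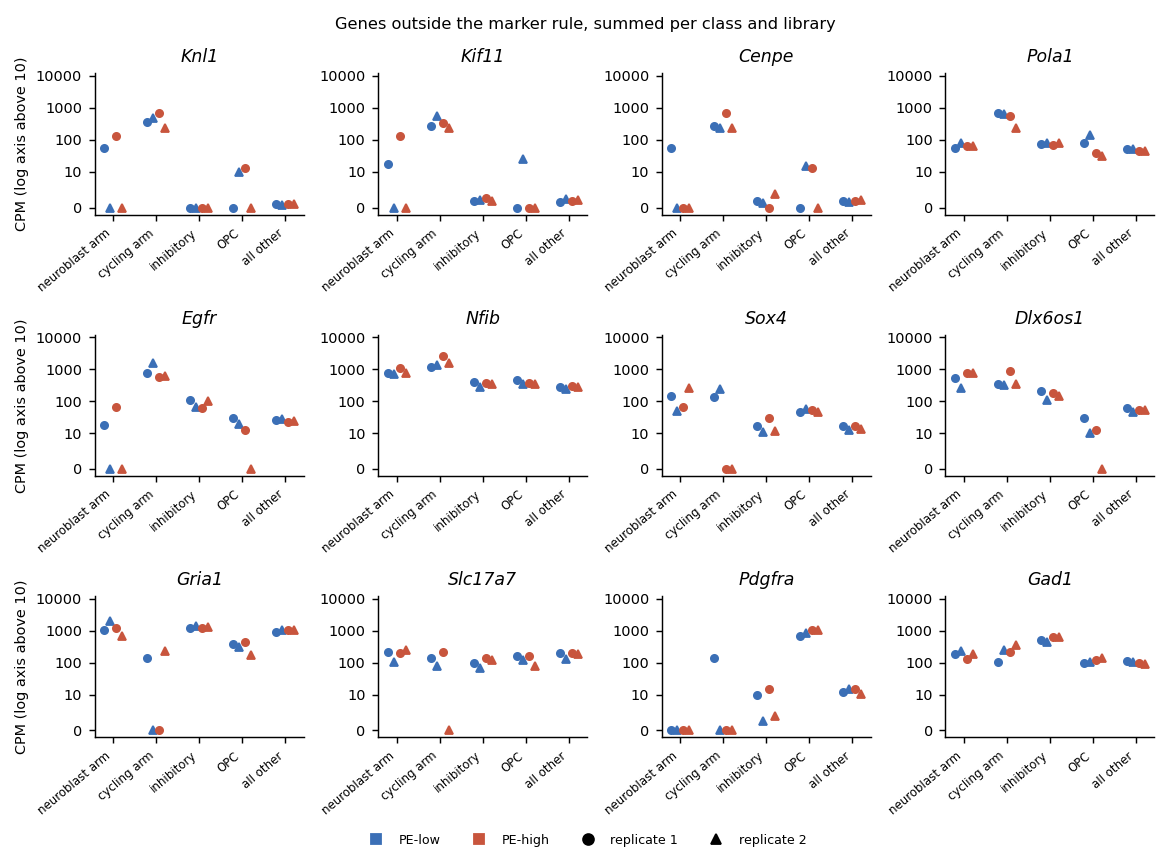
Level of 12 genes outside the rule, in CPM of UMIs summed per class and library (log axis above 10, linear below), in barcodes of the neuroblast arm only, the cycling arm only, inhibitory neuron barcodes, oligodendrocyte precursor barcodes (OPC) and all other barcodes, with 1 point per library. Knl1 and Egfr stood highest in the cycling arm in every library, and Pdgfra, which helped choose them, in the precursors.

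Set against each other directly, with barcodes of both arms left out, 155 genes had enough UMIs to be tested. Of these, 57 (36.8%) were higher in the neuroblast arm and 48 (31%) in the cycling arm, with log2 differences given as neuroblast minus cycling arm. Most of these genes were kept by the filter (640 CPM in all 4 libraries) through the arm where they were high. In each arm alone 37 genes passed, and of these 2 were higher in the neuroblast arm and 22 in the cycling arm. With no filter on low counts, 286 of 14533 genes were higher in the neuroblast arm and 43 in the cycling arm. For genes kept through 1 arm the values are a description, with no test. Among 9 tested genes of GABA signalling and synapse maturation the 6 higher in the neuroblast arm were all of that kind. Gria1, a subunit of the AMPA receptor, had 57, 240, 19 and 11 UMIs there and 4, 0, 0 and 2 in the cycling arm, and the arms did not overlap in UMIs. Grin2a and Grm5, further glutamate receptors, Dlgap2, a scaffold of the synapse, and Nrg3, a ligand of ErbB4, were also kept through the neuroblast arm. Of 4 tested neuroblast genes none was higher in the neuroblast arm, and Nrxn3, a synaptic adhesion protein, passed the filter in each arm and was higher in the cycling arm at -0.54 (adjusted p = 0.0299, edgeR). Map2, a microtubule protein of dendrites, also passed in each and was higher in the cycling arm, at -1.04. Ncam1, an adhesion molecule, was kept through the cycling arm, at -1.13, and Pde10a, a phosphodiesterase and striatal marker, through the neuroblast arm, at 1.39. Of 6 tested fate factors 4 passed in each arm, and of these Nfib and Tcf4 were higher in the cycling arm. Nfia and Zeb2 were kept through the cycling arm. Ptprz1, a receptor phosphatase of radial glia and glial precursors, had 40, 31, 9 and 9 UMIs in the cycling arm and 4, 19, 6 and 2 in the neuroblast arm, and was kept through the cycling arm, as were the transcription factor Zeb1 and the RNA-binding protein Msi2. The transcription factor Zbtb20 passed in each arm and was higher in the cycling arm. Xist, which also passed in each, was higher there too, at -2.0 ± 0.31. Its antisense Tsix had counts of its own and was called higher there as well, at -1.91 ± 0.44, kept through the cycling arm. The genes overlap, so reads of the shared stretch are told apart by strand only. Depth and the mitochondrial share differed with the arms, and their part in these differences was not tested. The median was 2060 UMIs in barcodes of the neuroblast arm only and 994 in those of the cycling arm only, and the median mitochondrial share was 3.74% and 5.51%. The mitochondrial genes mt-Atp6, mt-Co1, mt-Co2, mt-Co3, mt-Nd1, mt-Nd2, mt-Nd3, mt-Nd4 and mt-Cytb were all called higher in the cycling arm. Against all other barcodes, whose median mitochondrial share was 4.03%, mt-Nd1, mt-Nd3 and mt-Nd5 were instead called lower in the cycling arm. That fit included the barcodes of both arms and had a median log2 difference over all genes of -1.12.

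Markers outside the rule met the label neuroblast in part of its arm. Of the 87 barcodes of the neuroblast arm only, 24 had no UMI of Dlx1, Dlx2 or Igfbpl1 and entered through Sox11, Dcx, Ccnd2 or Cd24a, 47 had 1 of the 3 genes and 16 had 2 or 3. This split was made after the values were seen and was not tested. In the 16 barcodes Dlx6os1 lay at 706 CPM and Sox4 at 392 CPM. In the 24 barcodes Dlx6os1 lay at 110 CPM and Slc17a7, the vesicular glutamate transporter of excitatory neurons, at 234 CPM against 39.2 CPM in the 16, with counting intervals that overlapped. Syt1, a synaptic vesicle protein, lay at 4034 CPM in the 24. They were also deeper, with medians of 2537.5 UMIs against 1024.5 in the 16, and their libraries differed, with 3, 12, 3 and 6 of the 24 and 6, 8, 2 and 0 of the 16. Over all kept barcodes with few striatal UMIs, those with 0, 1 and 2 of the 7 neuroblast genes had medians of 1317, 2071 and 2488 UMIs. The neuroblast arm is therefore named here by its rule.

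**Figure D3:**
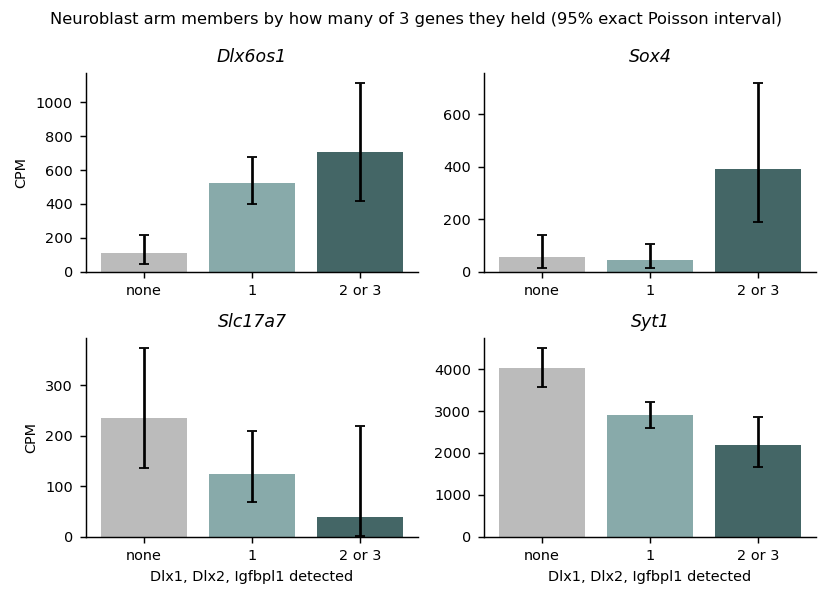
Level in CPM of summed UMIs, with exact Poisson intervals at 95%, of genes of immature and mature neurons in barcodes of the neuroblast arm only, split by how many of Dlx1, Dlx2 and Igfbpl1 they held (24, 47 and 16 barcodes). Dlx6os1 lay at 110 CPM in the barcodes with none and at 706 CPM in those with 2 or 3, and Slc17a7 at 234 and 39.2 CPM.

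Markers of other cell types were also counted in the members. Summed over the listed genes, the 8 excitatory markers lay at 1385 CPM in the members and 1550 CPM in all other barcodes, with Camk2a the most abundant, and none was at 0. The 11 inhibitory markers lay at 4179 against 2379 CPM, led by Erbb4. The 7 astrocyte markers lay at 2053 CPM in the cycling arm only and 671 CPM in the neuroblast arm only, led by Slc1a2, and at 2293 CPM in near-empty barcodes. The 7 oligodendrocyte precursor markers lay at 141 CPM in the members, and Pdgfra, the defining receptor of these precursors, had 4 UMIs, all in cycling barcodes of PE-low-EV replicate 1, or 14.1 CPM against 850 CPM in precursor barcodes. The 8 microglia markers lay at 102, 402, 111 and 1422 CPM in the cycling arm only of the 4 libraries, led by P2ry12 with 0, 2, 1 and 2 UMIs. The 6 oligodendrocyte markers lay at 791 CPM in the members, the 6 newly formed oligodendrocyte markers at 186 CPM with 1 gene at 0, the 6 endothelial markers at 28.1 CPM with 3 at 0, the 8 pericyte and fibroblast markers at 42.2 CPM with 4 at 0, the 8 striatal markers at 872 CPM and the 6 ependymal and choroid markers at 151 CPM with 2 at 0. The T cell list had 4 of its 5 genes at 0. The part of these cells and of free RNA in the results was not tested. Of the ependymal list Tmem212 was higher in the members, with all of its 11 UMIs in 1 barcode of PE-low-EV replicate 2. Ttr of the same list was lower, kept by way of all other barcodes alone. Dnah12 was called higher in the neuroblast arm, as was Tmem212.

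Olfactory neuroblasts become inhibitory neurons, so the members were also compared with 1534 barcodes that held UMIs of at least 2 of Gad1, Gad2 and Slc32a1. Of 4890 genes 216 (4.42%) were higher in the members and 214 (4.38%) lower, and without PE-low-EV replicate 1 the calls numbered 248 in all. DESeq2 called 129 higher and 75 lower, and at the mitochondrial limit of 3% 1 gene passed. Of the 2130 genes that passed the filter in each class alone (37.3 CPM in all 4 libraries), 131 were higher and 100 lower. Of 10 tested G2 and M phase genes 9 were higher, and all 9 had passed the filter through the members, so that count is no support. Knl1 had 0 UMIs in the inhibitory barcodes. Of 7 neuroblast genes that passed in each class, Dlx6os1 and Meis2 were higher and none lower, with Dlx6os1 at 1.58 on the log2 scale. Sox4 and Etv1, kept by way of the members, were higher as well, among 4 too low in the inhibitory barcodes to pass there. Of 12 fate factors that passed in each class 7 were higher and none lower, among them Nfia at 2.50 and Nfib at 1.55 on the log2 scale. Of 6 tested markers of inhibitory neurons 4 passed in each class, and of these Kcnc2, Erbb4 and Adarb2 were lower. Npy was called lower too but was kept by way of the inhibitory barcodes alone. Kcnc2, a fast potassium channel of interneurons, was lower by 1.77 on the log2 scale. Alk, a receptor tyrosine kinase, had 1, 7, 2 and 0 UMIs in the members, or 35.2 CPM against 362 CPM, and Pde11a, a phosphodiesterase, had 1 UMI, both kept by way of the inhibitory barcodes alone. Gad1 and Gad2 were used to choose the inhibitory barcodes.

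Oligodendrocyte precursors also divide in the adult brain. Against 358 barcodes that held at least 2 of Pdgfra, Cspg4 and Vcan, 221 of 1600 genes (13.8%) were higher in the members and 273 (17.1%) lower. DESeq2 called 120 higher and 196 lower, and at the mitochondrial limit of 3% 100 genes passed. Of the 633 genes that passed the filter in each class alone (123 CPM in all 4 libraries), 101 were higher and 97 lower. Dlx6os1 had 443 CPM in the members and 14.8 CPM in the precursors, and Egfr 204 and 19.0 CPM. Both were kept by way of the members, as were Robo2 and Epha3, guidance receptors, and Bcl11a, a neuronal transcription factor, so their levels are a description. Among 9 tested neuroblast genes 4 were higher and 1, Etv1, kept by way of the precursors, was lower. The guidance list had 14 tested genes, 6 higher and 3 lower (Tnr, Erbb4 and Dcc). In each class 11 of these passed, with 3 higher and 3 lower. The 11 tested fate factors held 5 higher and 1 lower. Erbb4 and Adarb2, the 2 inhibitory markers that passed in each class, were lower. Of 10 genes of GABA signalling and synapse maturation that passed in each class 5 were higher and 2 lower. Sema3d, Ampd3 and Calcrl, kept by way of the precursors, had 0 UMIs in the members and lay at 347, 193 and 180 CPM in the precursors. Gpc5, a heparan sulphate proteoglycan kept in the same way, lay at 183 against 3069 CPM.

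The number of members differed between the libraries. They made up 0.474% and 0.745% of the kept barcodes in the PE-low-EV libraries and 0.328% and 0.264% in the PE-high-EV libraries. The exact binomial intervals at 95%, which cover counting error only, were 0.345 to 0.636, 0.560 to 0.971, 0.214 to 0.480 and 0.165 to 0.399. Both PE-high-EV libraries lay below both PE-low-EV libraries, but the intervals of both PE-high-EV libraries overlapped that of PE-low-EV replicate 1. The mean was 0.296% with PE-high-EVs and 0.609% with PE-low-EVs, a difference of -0.314 percentage points (two-sided exact permutation p = 0.333, n = 2 libraries per group, the smallest p this design allows). Most of it lay in the neuroblast arm, at 0.269, 0.607, 0.177 and 0.156%. The cycling arm made up 0.226, 0.179, 0.177 and 0.132%, values that lay closer to each other.

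Depth moved with the shares. All other barcodes had medians of 1756, 2198, 1404 and 1444.5 UMIs, and the library with the largest share was the deepest. When every barcode was thinned to 500 UMIs before the rule was applied, the shares were 0.162, 0.142, 0.154 and 0.0773% (means of 20 draws), with a difference of -0.036 percentage points (exact permutation p = 0.667), and the neuroblast arm stood at 0.0695, 0.0469, 0.0486 and 0.0126%. Among barcodes of at least 500 but under 1000 UMIs the direction turned, at 0.638% with PE-high-EVs and 0.492% with PE-low-EVs (exact permutation p = 0.667), while from 1000 to under 2000 UMIs it was 0.167 against 0.758%. The members had median mitochondrial shares of 5.92, 3.52, 6.5 and 4.18%, so the limit on mitochondrial UMIs also decides which of them count.

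**Figure D4:**
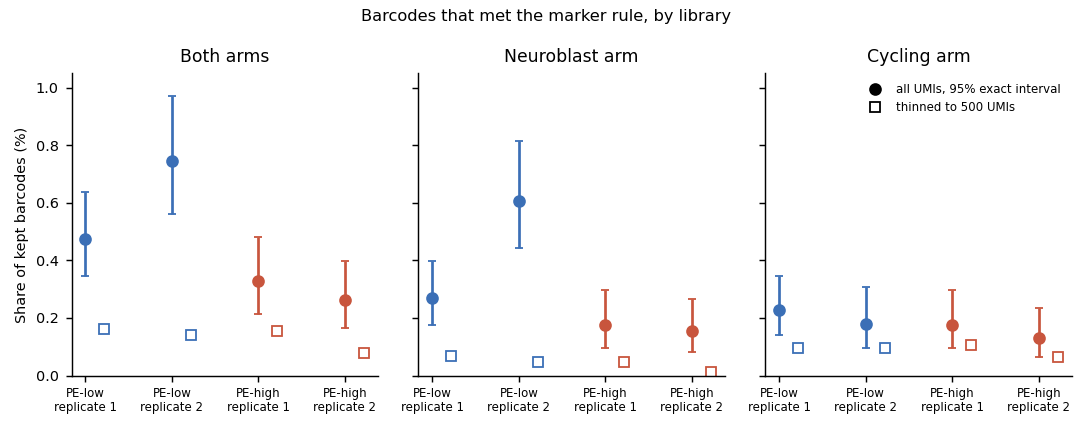
Share of kept barcodes that met the rule, in percent, for each of the 4 libraries, with exact binomial intervals at 95% for counting error, and the same shares after thinning every barcode to 500 UMIs. The shares as found run from 0.264 to 0.745%, and after thinning from 0.0773 to 0.162%.

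To see whether the vesicles changed what the members expressed, the summed UMIs of the 2 PE-high-EV libraries were compared with those of the 2 PE-low-EV libraries. Of 1143 genes with enough UMIs, none passed an adjusted p of 0.1 (0%) by edgeR, with 94 at an unadjusted p under 0.05, and none by DESeq2, with 20. Without PE-low-EV replicate 1 the calls numbered 34, of which 33 were lower, and without PE-high-EV replicates 1 and 2 they numbered 3 and 4, all lower. Only large changes were recovered on counts simulated at this depth with a fixed dispersion of 0.1, which was not estimated from these data. In that simulation, none of 59 genes changed by 1 on the log2 scale was recovered and 36.5% of 74 genes changed by 2. Fewer cells of a kind within the pool and less RNA per cell cannot be told apart in such sums.

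The genes nearest the threshold are given as values. The filter on low counts kept a gene that was high enough in 2 libraries. A gene could therefore be kept by way of 1 treatment alone, where it tends to come out higher. Among those lower with PE-high-EVs, Grip1, a scaffold of glutamate receptors, had 74, 188, 9 and 9 UMIs in the 4 libraries, a log2 difference of -1.85 ± 0.41 (adjusted p = 0.329, edgeR). Grik1, a kainate receptor subunit, had 16, 69, 0 and 2 UMIs and a log2 difference of -3.30, and Zfp804a 15, 45, 1 and 0 and -3.77. The PE-low-EV libraries held more in each case, and PE-low-EV replicate 2, the deepest, held most. Grik1 and Zfp804a were kept by way of the PE-low-EV libraries alone, so their falls are no support. Npas3 and Trhde were at -1.70 and -2.77. Among those higher, Selenow, a selenoprotein, had 17, 10, 12 and 11 UMIs from far fewer total UMIs in the PE-high-EV members, at 1.64 ± 0.53 (adjusted p = 0.47, edgeR), and Fau, a ribosomal protein gene, and Ptgds, prostaglandin D synthase, were at 1.57 and 1.44. The level of Selenow in the members was 197, 71.0, 403 and 399 CPM, so both PE-high-EV libraries lay above both PE-low-EV libraries, and in near-empty barcodes it was 869, 702, 914 and 894 CPM. Dlx1as, which overlaps Dlx1 of the rule, had 5, 15, 12 and 6 UMIs. Selenow and Dlx1as were kept by way of the PE-high-EV libraries alone, so their levels are a description. Genes of the rule stayed among the genes tested but are given without a p, since each member had to hold some of them. Top2a was at a log2 difference of 1.1 ± 0.42 (SE), Mki67 at 1.24 ± 0.63 and Dcx at 0.59 ± 0.40. Outside the rule, Egfr was at 0.37 ± 0.54 and Dlx6os1 at 0.79 ± 0.38, and neither passed. Of the neuroblast list 7 genes were tested, of which 6 had a positive and 1 a negative difference, and none passed. The mix of arms and the depth of the members moved with treatment, and their part was not tested.

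**Figure D5:**
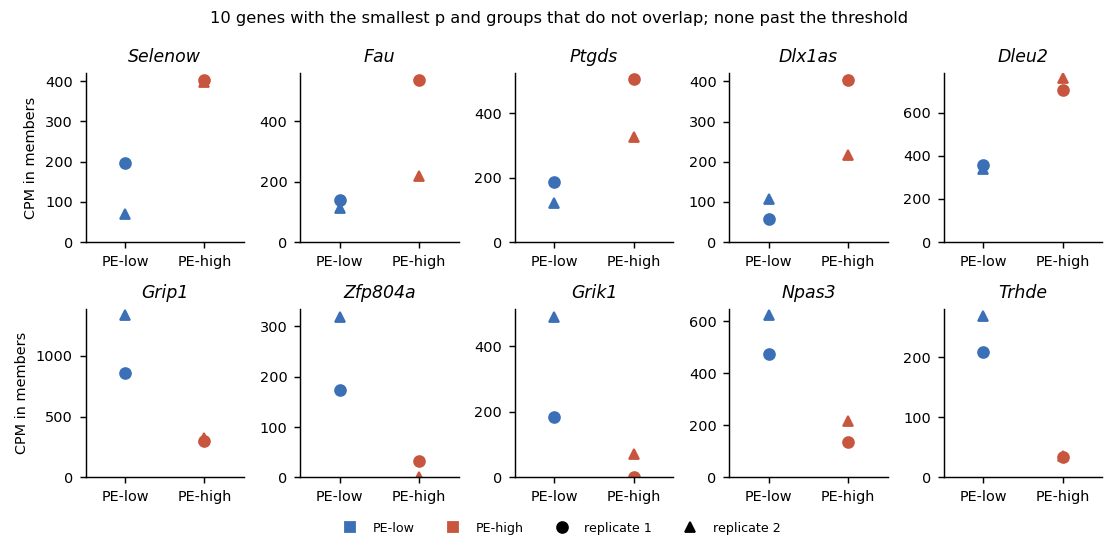
Level in CPM of summed UMIs in the members, with 1 point per library, for the 10 genes with the smallest p between treatments whose groups did not overlap. Both PE-high-EV libraries lie above both PE-low-EV libraries for the 5 upper genes and below them for the 5 lower genes, and no gene shown had an adjusted p of 0.1 or less.

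Whether treatment moved the members otherwise than the rest was tested as an interaction over members and all other barcodes. Genes of the rule stayed among those tested, and none of them passed. Of 15642 genes, 32 (0.205%) had a lower treatment effect in the members and none a higher one at an adjusted p of 0.1 by edgeR, with 723 at an unadjusted p under 0.05. The median of this difference over all genes was -0.45 by edgeR and 0.16 by DESeq2, so the effects given here stand beside a shift that differed in sign between the tools. DESeq2 called none, with 221 at an unadjusted p under 0.05, and leaving out each library in the usual order left 0, 0, 2 and 6. They include the glutamate receptor genes Gria1, Gria2 and Grik1, the GABA receptor gene Gabrg3 and the scaffold Grip1. For Etl4 the members held 51, 129, 6 and 9 UMIs, and the treatment effect relative to all other barcodes was -2.24 ± 0.46 on the log2 scale (adjusted p = 0.00549, edgeR). With the neuroblast arm as the members 12 genes passed, all lower, and with the cycling arm none, with 140 at an unadjusted p under 0.05.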

How the data were processed

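Nuclei were isolated from frozen brain sections and sequenced with 10x 3' v3.1 chemistry. Per the study's methods, the authors made the counts with Cell Ranger 7.1.0 on mm10 (2020-A reference). They deposited, per library, unfiltered UMI counts per gene and barcode. The deposited feature and barcode lists are labels of another kind than a count and gave names and order. Whether intronic reads were counted, and strand, is not given in the sources used here. The study's own limits were 200 to 2500 genes and 3% mitochondrial UMIs. The wider limit of 10% was used here, a minimum of 500 UMIs is no call of droplets with nuclei, and doublets were not removed.

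The members, the 27 gene lists (308 genes) and the tests were chosen with earlier results of these data known. UMIs were summed per library and class, with 2 libraries per group. Pooled mice of a library are no separate replicates, so p-values measure the spread between libraries. Genes passed filterByExpr, were scaled by TMM and tested with edgeR 4.0.16 (glmQLFTest, in R 4.3.3). P-values were adjusted by Benjamini-Hochberg across every gene tested, and 0.1 was the threshold. Class comparisons had the library as a block. DESeq2 1.42.0 was an alternative. Shares were compared by exact permutation (scipy 1.17.1, Python 3.11.15, numpy 2.4.6, pandas 2.3.3). CPM are per summed UMIs of a class, with exact Poisson intervals. Intervals and floors (3 counts) cover counting error only. Named genes were those of the rule and the lists, up to 12 in each direction with the largest log2 difference among genes past the threshold that had UMIs in the higher class in all 4 libraries and no overlap between classes, and up to 12 by p in the treatment comparisons. With fewer than 5 past the threshold, the 5 with the smallest p in each direction whose groups did not overlap were given as values. Others were chosen after their values were seen. A few genes are left out of the text. Simulated counts had a fixed dispersion of 0.1, which was not estimated from these data. For members against all other barcodes, 13% of genes changed by 1 on the log2 scale and 77% of those changed by 2 were recovered in them, with 5 false calls over both.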

Additional observations from a re-analysis of the deposited data

Results flagged for a closer look

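In members, the treatment effect differed from that in all other barcodes for 32 genes by the interaction test of edgeR, all with a lower effect in the members. The median of this difference over all genes tested was -0.45 by edgeR and 0.16 by DESeq2, which called no gene. The 12 with the smallest adjusted p were Grip1, at a difference of the log2 effects of -2.22, Etl4 at -2.24, Zfp804a at -4.42, Ryr3 at -3.67, Pde1a at -2.86, Grik1 at -3.46, Tafa1 at -1.86, Tafa2 at -1.96 and Kirrel3 at -1.89, and Nap1l1, Kcnip1 and Shisa6, which had 0 UMIs in both PE-high-EV libraries. Nap1l1 had 21, 15, 0 and 0 UMIs in the members (adjusted p of the difference 0.0154, edgeR), Kcnip1 8, 39, 0 and 0 (0.0233) and Shisa6 4, 35, 0 and 0 (0.0297). With the floor at 3 counts over the PE-high-EV members (52.3 CPM), their levels there were at least 3.03-, 3.95- and 3.28-fold lower than in the PE-low-EV members. Of the 32 genes, 6 had 0 UMIs in the PE-high-EV members. These members held 29757 and 27569 UMIs against 86346 and 140848, and the neuroblast arm was 0.166% of barcodes against 0.438%. The part of depth and of the mix of arms was not tested. Without PE-low-EV replicate 1 or 2 no gene passed, and without PE-high-EV replicate 1 or 2, 2 and 6 passed.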

How the results depend on the processing

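Counts of genes past the threshold moved with the setting, and the cause was not tested except where fewer barcodes or genes entered. Members against all other barcodes gave 661 genes, 292 with DESeq2, 12 at 3% mitochondrial UMIs, 176 with the neuroblast arm and 1639 with the cycling arm, and 272 to 624 when 1 library was left out. Leaving out PE-low-EV replicate 1 gave 272, PE-high-EV replicate 1 364 and PE-high-EV replicate 2 418. Against inhibitory neuron barcodes the count was 430, 204 with DESeq2, 1 at 3%, 132 and 986 with the arms, and 248 to 413 with 1 library left out, the lowest without PE-low-EV replicate 1. Against oligodendrocyte precursor barcodes it was 494, 316 with DESeq2, 758 with no filter on low counts, 100 at 3%, 308 with the cycling arm and 383 to 644 with 1 library left out. The arms against each other gave 105, 329 with no filter and 90 to 142 with 1 library left out, and could not be fitted at 3% because a library then had no UMIs in an arm. Between treatments the count was 0, 28 with no filter (all lower with PE-high-EVs), 3 with the cycling arm (Sgcz, Dpp10 and Ptprd, higher) and 0 to 34 with 1 library left out. It was 34 without PE-low-EV replicate 1, 3 without PE-high-EV replicate 1 and 4 without PE-high-EV replicate 2. The interaction gave 32, 0 with DESeq2, 12 and 0 with the arms and 0 to 6 with 1 library left out. RLE factors, no library block and an adjusted p of 0.05 left the total counts of the main fits they were run on within 1.5 times. Some alternatives moved more at 0.05. With the neuroblast arm the interaction went from 12 to 4 and the comparison with inhibitory barcodes from 132 to 83. The difference in the share of members kept its direction in 22 of 24 alternatives, and turned to 0.1463 percentage points among barcodes of under 1000 UMIs and 0.1776 for the cycling arm there. With 1 library left out it ran from -0.4491 to -0.1783. Dleu2 turned to a log2 difference of -0.35 between treatments in the cycling arm. Deviations of same-numbered libraries had a correlation of r = -0.026 over 1143 genes. Counting error in genes of few UMIs draws r towards 0, so this value cannot decide whether the numbers pair the samples. With a replicate block 0 genes passed (82 at an unadjusted p under 0.05, edgeR). The members held 284520 UMIs in all, and the part of this total in these results was not tested.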
